A study of Homo sapiens with 4 samples.

Results

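Immediate early genes are transcribed within minutes of a growth factor, serum or stress signal, with no need for new protein synthesis. The 10 members of such a set, FOS, FOSB, FOSL1, FOSL2, JUN, JUNB, JUND, EGR1, IER2 and IER3, were chosen by gene symbol from the 58735 genes of an RNA-seq table. The choice was made with earlier results of these data known. Each symbol was found once, and all 10 were among the 14429 genes whose FPKM averaged 1 or more over the libraries. FPKM counts fragments on a gene relative to its length and to the size of the library. The table itself assigned 8 of the members to a transcription factor family, 7 to the bZIP family and 1, EGR1, to the C2H2 zinc fingers, and it assigned IER2 and IER3 to none, so the set is called immediate early genes here.

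The study compared spheroids with adherent cells of HCT116 and LOVO, both human colorectal cancer cell lines, to look at cells with stem-like traits. Each line gave 1 library of adherent cells and 1 of spheroids, 4 in all, every one labelled wild type. Adherent cells were kept in RPMI-1640 with fetal bovine serum and no drug. Spheroids were formed, per the methods of the study, in serum-free DMEM/F12 with B27, N2, bFGF and EGF. The text of the study names oxaliplatin, a platinum drug, dosed in μg/ml. In the labels the treatment of the spheroids reads 1 mg/ml and no drug is named. Growth form, medium and drug therefore changed together and cannot be told apart. With 1 library per condition no value carries a replicate error, and the intervals given for ratios are exact (Clopper-Pearson) 95% intervals that cover counting error only.

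The libraries held between 15483569 and 20429147 reads on genes, and the members took 54401 of them in HCT116 adherent cells, 22553 in HCT116 spheroids, 14051 in LOVO adherent cells and 39473 in LOVO spheroids. The reads were recovered from FPKM and gene length. Between 3.65% and 11.1% of the reads lay on mitochondrial genes, the highest share being that of HCT116 spheroids. The LOVO libraries stood apart from their label of colon cancer cells. EPCAM, an epithelial adhesion protein, was at 85.6 and 79.3 FPKM in adherent cells and spheroids of HCT116 and at 0.930 and 1.5 in those of LOVO, CDH1 (E-cadherin) was at 31.1 in both HCT116 libraries and at 0.117 and 0.00805 in LOVO, and the intestinal factor CDX2 was at 0 in both LOVO libraries. Over the whole list of 10 colon epithelial markers the summed FPKM was 1754 and 1288 in HCT116 against 327 and 187 in LOVO, with 3 markers at 0 in each LOVO library, CDX1, CDX2 and VIL1, of which CDX1 and VIL1 were at most at 0.0946 in HCT116 as well. The keratins KRT8 and KRT18 were present in LOVO, at 189 and 81.6 and at 122 and 98.8 FPKM. The summed level of 5 fibroblast markers was 5.52 and 15.9 in HCT116 and 52.5 and 71.6 in LOVO, most of it in LOVO from the matrix proteoglycans LUM (31.4 and 50.4) and DCN (10.4 and 9.97), which were at most at 0.0198 in HCT116. The collagen gene COL1A1 was at 5.51 and 15.5 in HCT116 and at 9.89 and 6.10 in LOVO, and COL1A2 was at most at 0.00534 in any library. Leukocyte markers summed to 0.148 to 1.95 FPKM over the 4 libraries, and endothelial markers to 0.306 to 1.13 in 3 libraries and to 7.84 in LOVO spheroids, of which PECAM1 made up 6.35. The results are therefore given for each line on its own as well as for both, and the part of these markers in them was not tested.

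Signals reach the immediate early genes mainly through the ERK kinases, which act on ELK1 and the serum response factor SRF at CArG boxes, and through CREB at the cAMP response element. Many of the mRNAs and proteins are short-lived, so that their level can follow recent signalling. Fos proteins (FOS, FOSB, FOSL1 and FOSL2) bind DNA only as dimers with a partner such as a Jun protein (JUN, JUNB or JUND), and the dimers form AP-1, which binds the AP-1 element. EGR1 binds a GC-rich element of its own, IER2 is a small nuclear protein, and IER3 is a regulator of cell survival. Serum and EGF are both classical inducers of these genes, and in the colon AP-1 is known for its part in proliferation and invasion.

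The sequence just around the start is shown for FOS, JUN, EGR1 and JUND. Among the 8 members with a promoter entry, EGR1, JUN and FOS had the widest ranges of FPKM over the libraries and JUND the narrowest. IER3 and FOSL1, which ranged wider than FOS, had no entry. Each run is 300 bases, 250 before to 50 after the annotated start, from RefSeq (GRCh38.p14), read 5′ to 3′ along the gene, at chr14:75278578-75278877 (plus strand) for FOS, chr1:58783998-58784297 (minus) for JUN, chr5:138465229-138465528 (plus) for EGR1 and chr19:18281573-18281872 (minus) for JUND. Capitals mark matches on either strand to a CArG box, the cAMP response element TGACGTCA, its first letters TGACG, the AP-1 element TGANTCA, the EGR element GCGNGGGCG and the TATA box TATAAA.
FOS: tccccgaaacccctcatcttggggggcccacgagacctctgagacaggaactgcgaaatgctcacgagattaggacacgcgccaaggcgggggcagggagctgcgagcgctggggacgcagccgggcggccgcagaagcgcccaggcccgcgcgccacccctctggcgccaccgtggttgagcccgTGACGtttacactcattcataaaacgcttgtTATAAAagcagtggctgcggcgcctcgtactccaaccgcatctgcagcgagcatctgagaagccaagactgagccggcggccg
JUN: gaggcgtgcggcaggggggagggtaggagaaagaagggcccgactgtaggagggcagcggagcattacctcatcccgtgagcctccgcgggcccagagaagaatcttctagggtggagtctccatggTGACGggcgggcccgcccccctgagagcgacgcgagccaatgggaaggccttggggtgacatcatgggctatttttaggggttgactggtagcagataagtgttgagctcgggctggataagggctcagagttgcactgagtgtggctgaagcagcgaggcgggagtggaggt
EGR1: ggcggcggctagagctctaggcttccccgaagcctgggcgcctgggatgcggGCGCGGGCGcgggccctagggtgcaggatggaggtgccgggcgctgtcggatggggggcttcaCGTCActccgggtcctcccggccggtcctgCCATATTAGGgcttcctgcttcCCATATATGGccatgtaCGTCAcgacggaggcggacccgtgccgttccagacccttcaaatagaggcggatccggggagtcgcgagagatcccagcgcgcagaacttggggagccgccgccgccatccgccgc
JUND: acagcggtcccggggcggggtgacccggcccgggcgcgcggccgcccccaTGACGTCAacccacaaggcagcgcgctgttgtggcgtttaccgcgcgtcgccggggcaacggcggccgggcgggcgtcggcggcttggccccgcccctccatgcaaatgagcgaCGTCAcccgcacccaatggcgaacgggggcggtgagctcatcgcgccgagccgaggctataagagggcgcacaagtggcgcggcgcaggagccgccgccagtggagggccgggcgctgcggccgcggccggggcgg

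Of the 10 members 8 had an entry in the promoter table, and FOSL1 and IER3 are named only. The EGR1 window held 2 CArG boxes, which begin 105 and 83 bases before the start, and an EGR element at 198 bases before it. A CArG box was present in 1.29% of 35116 promoters and an EGR element in 9.43%, and EGR1 was the only member among the 8 with either in its window. Sequence farther from the start was not searched, so an element there would be missed. The whole cAMP response element, found in 1.85% of promoters, lay in JUND alone, 200 bases before the start. The AP-1 element, found in 7.71%, lay in FOSL2 alone, just after the start. Only exact letters were counted, so a near match such as tgacatca in the JUN window was left out. The TATA box stood 33, 30 and 31 bases before the start of FOS, FOSB and JUNB and in 11.5% of all promoters. The 5 letters TGACG, which overlap the cAMP response element and were searched after the sequences had been seen, occurred in all 8 windows against 24.6% of promoters. GC boxes (GGGCGG) were in 6 of the 8 windows and in 45.0% of promoters, and CCAAT was in 3 of 8 and in 34.6%. The GC content of the 8 windows lay between 62.0% and 77.0%, above the median of 58.7% over all promoters. A match of letters is a description and not a site of binding.

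The members were also short in structure. Exons were counted in 1 protein-coding transcript of each gene in GENCODE 29. In these transcripts JUN, JUNB, JUND and IER2 have a single exon and EGR1 and IER3 have 2. Thus 6 of the 10 members had at most 2 exons against 7.0% of 11680 protein-coding genes compared, whose median was 9.0. The annotated exons of IER2 cover 3072 bases and do not fill its span, so other transcripts of it have introns. The Fos genes have 4 exons each in the transcripts used. ATTTA, the letters at the core of AU-rich elements that speed the decay of an mRNA, occurred 8.14 times per kilobase of the 3′ UTR in IER3, 6.20 times in FOS and 4.0 times in JUNB, against a median of 1.66 over all these genes. The density lay above that median in 5 members, with 2.33 in JUN and 1.85 in FOSL2, and below it in the other 5, FOSL1, JUND, FOSB, EGR1 (0.810) and IER2 (0).

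In HCT116 most members were lower in spheroids, and in LOVO most were higher. Of the 10 members 9 had a negative log2 fold change in HCT116 (log2(FPKM + 1) of spheroids minus that of adherent cells, a scale that understates the change of low genes), where 53.4% of the genes compared were lower. In LOVO 8 of 10 were positive, where 45.5% of the genes compared were higher. The median of the members was -1.21 in HCT116 and 0.65 in LOVO, beside -0.03 and -0.06 over all genes compared. Lower in HCT116 and higher in LOVO were 8 members, a pattern of 17.9% of the genes, and FOSL2 had the opposite signs while JUND was lower in both lines. The pairs of libraries behind these 2 comparisons do not overlap, but the members were chosen with earlier results of these data known. The counts beside all genes are therefore a description and not a test.

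**Figure D1:**
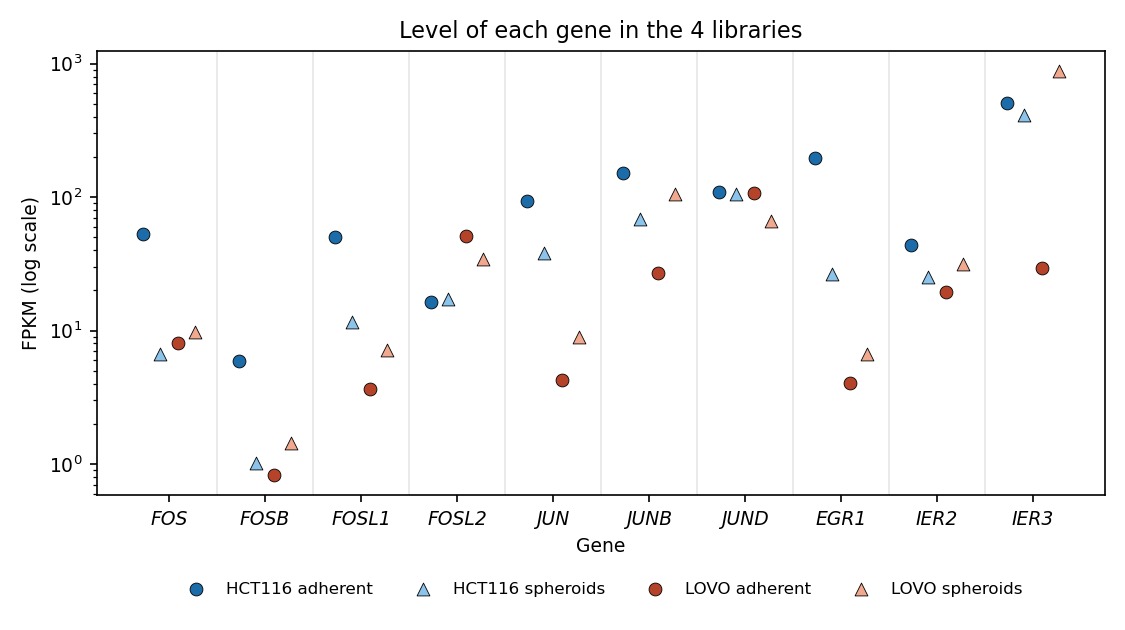
FPKM of the 10 members on a log axis in the 4 libraries, 1 point for each library and no error, since each condition has 1 library. HCT116 adherent cells are the highest library for 8 members, LOVO adherent cells for FOSL2 and LOVO spheroids for IER3, and JUND lies within 66.3 to 109.

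FOS (ENSG00000170345, chr14:75278774-75282230, plus strand), the founding member of its family, was at 52.9 FPKM in HCT116 adherent cells against 6.62 in HCT116 spheroids, with 3490 and 360 reads. It was at 8.13 in LOVO adherent cells and 9.70 in LOVO spheroids, from 472 and 632 reads. HCT116 adherent cells were thus alone at a high level and the other 3 libraries lay close together. The level in HCT116 spheroids was 7.99-fold lower than in adherent cells, a log2 fold change of -2.82, and 0.0693% of the genes compared had a lower one. The log2 ratio was -3.0 (interval -3.16 to -2.84). In LOVO the log2 fold change was 0.23, with a log2 ratio of 0.26 (0.08 to 0.43), the smallest of the positive differences in that line.

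FOSB (ENSG00000125740, chr19:45467995-45475179, plus strand), a close relative of FOS, was the lowest of the members, at 5.93 FPKM in HCT116 adherent cells, 1.01 in HCT116 spheroids, 0.823 in LOVO adherent cells and 1.44 in LOVO spheroids. Its libraries were in the order of those of FOS except that the lowest pair changed places, and they held 671, 94, 82 and 161 reads. The log2 fold change was -1.79 in HCT116, where FOSB was 5.88-fold lower, and 0.42 in LOVO. As a low gene it depends on the pseudocount, and without one its log2 ratio was -2.56 (-2.88 to -2.24) in HCT116 and 0.81 (0.41 to 1.21) in LOVO.

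FOSL1 (ENSG00000175592, chr11:65892049-65900573, minus strand) encodes FRA1, which lacks the strong activation domain of FOS and is known from invasive carcinoma cells. Its FPKM was 50.4 in HCT116 adherent cells, 11.5 in HCT116 spheroids, 3.63 in LOVO adherent cells and 7.19 in LOVO spheroids. Both HCT116 libraries lay above both LOVO libraries. HCT116 spheroids were 4.37-fold lower than adherent cells (log2 fold change -2.04), and LOVO spheroids were 1.98-fold higher (0.82), with log2 ratios of -2.13 (-2.29 to -1.97) and 0.98 (0.67 to 1.30).

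FOSL2 (ENSG00000075426, chr2:28392448-28417312, plus strand), which encodes FRA2, was the one Fos gene higher in LOVO than in HCT116 in both growth forms. It was at 16.4 and 17.3 FPKM in adherent cells and spheroids of HCT116 and at 51.4 and 34.5 in those of LOVO. The HCT116 libraries did not differ beyond counting error, with a log2 ratio of 0.07 (-0.01 to 0.16). In LOVO the spheroids were 1.49-fold lower, a log2 fold change of -0.56 and a log2 ratio of -0.58 (-0.63 to -0.52).

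JUN (ENSG00000177606, chr1:58780788-58784327, minus strand), the Jun protein that most strongly activates transcription, was at 94.0 FPKM in HCT116 adherent cells, 38.1 in HCT116 spheroids, 4.27 in LOVO adherent cells and 9.0 in LOVO spheroids. The libraries were ordered by line, the lower HCT116 library being above the higher LOVO library. HCT116 spheroids were 2.47-fold lower (log2 fold change -1.28, log2 ratio -1.30, interval -1.37 to -1.23). LOVO spheroids were 2.11-fold higher (0.92, log2 ratio 1.08, 0.87 to 1.29).

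JUNB (ENSG00000171223, chr19:12791496-12793315, plus strand), a weaker activator that can hold JUN back, was at 151 and 68.4 FPKM in adherent cells and spheroids of HCT116 and at 26.9 and 106 in those of LOVO. The growth forms changed places between the lines. JUNB was 2.21-fold lower in HCT116 spheroids (-1.13) and 3.93-fold higher in LOVO spheroids (1.93), with log2 ratios of -1.15 (-1.22 to -1.07) and 1.97 (1.87 to 2.08). In LOVO 97.9% of the genes compared had a lower log2 fold change. On the opposite strand 259 bases of its exons are shared with HOOK2, which had between 252 and 1408 reads, and whether the counting used strand is not given in the sources used here.

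JUND (ENSG00000130522, chr19:18279760-18281622, minus strand), the Jun gene known for steady expression, was the most even member. It was at 109 and 105 FPKM in adherent cells and spheroids of HCT116 and at 108 and 66.3 in those of LOVO. In HCT116 the log2 ratio was -0.06 with an interval of -0.13 to 0.00, so no difference was detectable beyond counting error. LOVO spheroids were 1.63-fold lower than LOVO adherent cells, a log2 fold change of -0.70 and a log2 ratio of -0.71 (-0.78 to -0.63).

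EGR1 (ENSG00000120738, chr5:138465490-138469315, plus strand), the zinc finger factor whose promoter carries the 2 CArG boxes printed above, was at 196 FPKM in HCT116 adherent cells against 26.7 in HCT116 spheroids, with 12508 and 1407 reads. It was at 4.03 in LOVO adherent cells and 6.68 in LOVO spheroids, from 227 and 422 reads. Its highest library was 48.5-fold above its lowest, the widest range among the members. HCT116 spheroids were 7.33-fold lower (log2 fold change -2.83, log2 ratio -2.87, interval -2.95 to -2.79), and 0.0554% of the genes compared had a lower log2 fold change. In LOVO the spheroids were 1.66-fold higher (0.61, log2 ratio 0.73, 0.49 to 0.97).

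IER2 (ENSG00000160888, chr19:13150415-13154908, plus strand) was at 44.0 and 25 FPKM in adherent cells and spheroids of HCT116 and at 19.3 and 31.7 in those of LOVO, from 2757, 1292, 1063 and 1961 reads. The differences were of nearly equal size in opposite directions. The log2 fold change was -0.79 in HCT116, with a log2 ratio of -0.81 (-0.91 to -0.72), and 0.69 in LOVO, with a log2 ratio of 0.72 (0.61 to 0.83).

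IER3 (ENSG00000137331, chr6:30743199-30744554, minus strand), also called IEX-1 and a target of both NF-κB and the ERK pathway, was the most abundant member in 3 of the 4 libraries. Its FPKM was 510 in HCT116 adherent cells, 409 in HCT116 spheroids, 29.5 in LOVO adherent cells and 882 in LOVO spheroids. LOVO adherent cells were the one library at a low level. LOVO spheroids were 29.9-fold above LOVO adherent cells, from 24068 against 718 reads, a log2 fold change of 4.85 and a log2 ratio of 4.90 (4.79 to 5.01), and 99.9% of the genes compared had a lower log2 fold change. Among all genes of a library ranked by FPKM, IER3 was 1825th in LOVO adherent cells and 21st in LOVO spheroids. In HCT116 it was 1.25-fold lower in spheroids (-0.32, log2 ratio -0.32, -0.36 to -0.28). The antisense gene IER3-AS1 shares 359 exonic bases with it and had 0 to 26 reads.

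**Figure D2:**
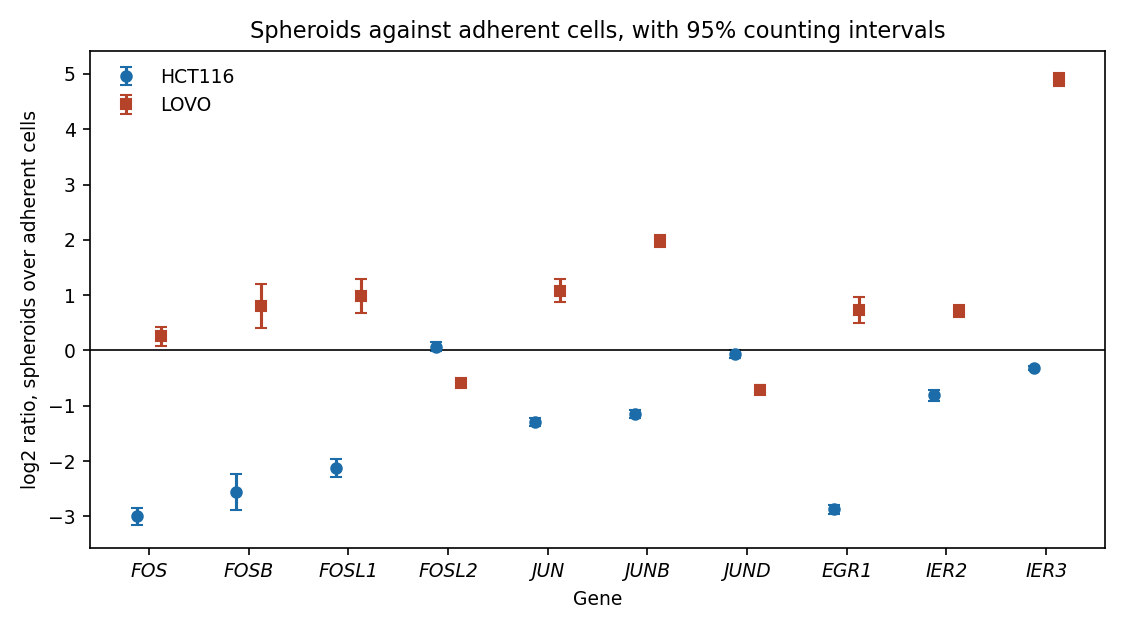
Log2 ratio of FPKM in spheroids over adherent cells for each member in HCT116 and LOVO, with 95% exact counting intervals as bars and a line at 0. Genes are on the x axis and the log2 ratio is on the y axis. In HCT116 the points of FOS and EGR1 lie lowest, and in LOVO that of IER3 lies highest at 4.90.

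Large differences were counted in the members and over all genes. A log2 fold change below -1 was seen in 6 of the 10 members, FOS, FOSB, FOSL1, JUN, JUNB and EGR1, and in 3.33% of the genes compared. Below -2 were 3 members, FOS, FOSL1 and EGR1, beside 0.506% of the genes. In LOVO 2 members, JUNB and IER3, were above 1 beside 8.57% of the genes, and 1 member, IER3, was above 2 beside 1.81%. The counts in LOVO thus rest on IER3 and JUNB, and the other 6 members that were higher there had log2 fold changes between 0.23 and 0.92. The counting interval of the log2 ratio lay below 0 for 8 members in HCT116 and included 0 for FOSL2 and JUND, and in LOVO it lay above 0 for 8 and below 0 for 2. Intervals were not counted over all genes compared, so these numbers do not set the members apart from other genes.

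**Figure D3:**
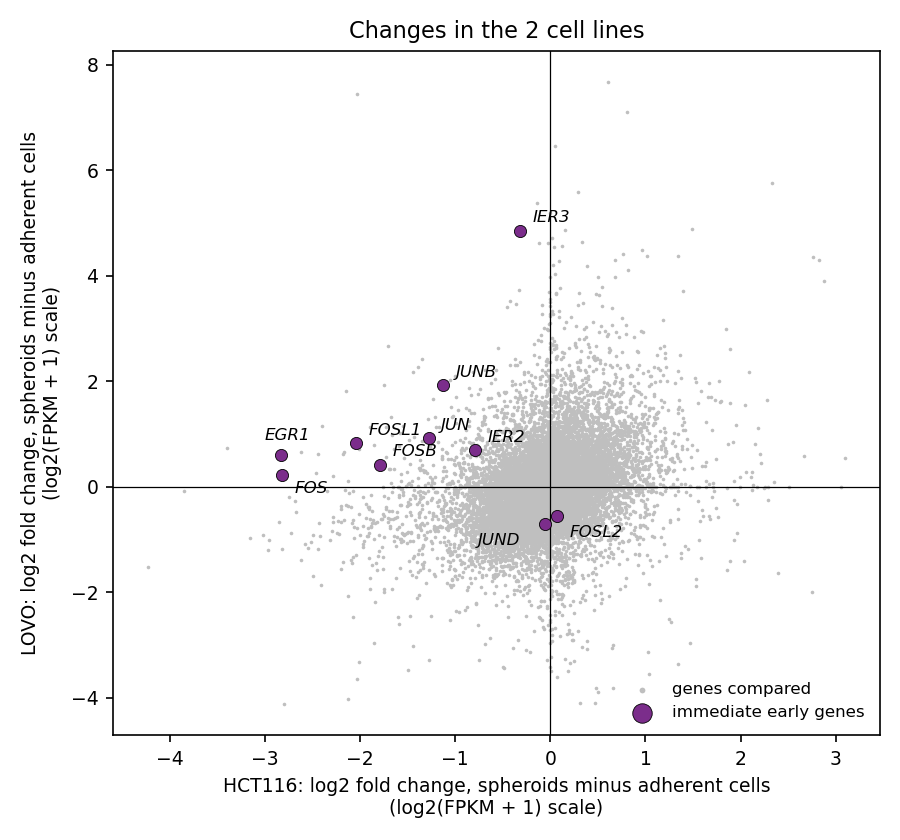
Log2 fold change in HCT116 (x axis) against that in LOVO (y axis), both on the log2(FPKM + 1) scale, for the 14429 genes compared in grey and the 10 members named. Of the members 8 lie left of and above the axes, and IER3 is the highest of the members with 4.85.

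Set side by side in adherent culture, the lines differed widely in these genes. HCT116 adherent cells were above LOVO adherent cells 48.5-fold in EGR1, 22.0-fold in JUN, 17.3-fold in IER3 and 13.9-fold in FOSL1. The excess was smaller in FOSB (7.20-fold), FOS (6.51-fold), JUNB (5.63-fold) and IER2 (2.28-fold). FOSL2 was 3.13-fold higher in LOVO, and JUND, at 109 and 108 FPKM, was the member that barely differed. Lower in LOVO adherent cells were 9 of 10 members against 46.9% of the genes compared, and 6 of 10 were lower by more than 2 on the log2(FPKM + 1) scale against 5.59%.

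In spheroids the lines lay closer. Only 4 of 10 members were lower in LOVO spheroids, with 48.4% of the genes compared, and 0 of 10 were lower by more than 2, with 4.71% of the genes. The median size of the difference between lines was 2.51 in adherent cells and 0.64 in spheroids over the members, and 0.67 and 0.65 over all genes compared. For 9 of the 10 members, against 51.8% of the genes, the lines differed less in spheroids than in adherent cells, the exception being JUND with -0.01 and -0.65. JUN and EGR1 kept the widest gaps in spheroids, with log2 differences (LOVO minus HCT116) of -1.97 and -1.85. These differences use the same libraries as the fold changes within a line and are another view of the same values. HCT116 adherent cells were the highest library for 8 members, where 22.2% of the genes compared had their highest value, and for 6 members they were the highest and LOVO adherent cells the lowest, as in 8.35% of the genes. In bulk RNA a gene expressed by fewer cells and a gene expressed at a lower level in each cell cannot be told apart.

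Because FPKM is per length, the members of a family can be compared within a library. The Fos genes summed to 126 FPKM in HCT116 adherent cells, 36.4 in HCT116 spheroids, 64.0 in LOVO adherent cells and 52.8 in LOVO spheroids. In HCT116 adherent cells FOS made up 42.1% of this sum and FOSL1 40.1%. FOSL2 held the largest share in the other 3 libraries, with 47.5% in HCT116 spheroids, 80.3% in LOVO adherent cells and 65.3% in LOVO spheroids. In HCT116 the larger share of FOSL2 in spheroids went with lower levels of the other 3 Fos genes, its own FPKM being 16.4 and 17.3. Counted as a share of reads without length, FOSL2 had 28.2% and FOSL1 22.8% in HCT116 adherent cells.

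The Jun genes summed to 355, 211, 139 and 181 FPKM in the same order of libraries. JUNB led in HCT116 adherent cells with 42.7% and in LOVO spheroids with 58.4%, and JUND led in HCT116 spheroids with 49.6% and in LOVO adherent cells with 77.7%. JUN made up 26.5% and 18% in HCT116 and 3.06% and 4.97% in LOVO. By reads, JUN and not JUNB was the largest in HCT116 adherent cells (41.0% against 33.9%), since the exons of JUNB are shorter. By FPKM, Jun exceeded Fos mRNA in every library, by 2.82-fold and 5.80-fold in adherent cells and spheroids of HCT116 and by 2.18-fold and 3.43-fold in those of LOVO. Without length the order turned in LOVO adherent cells. There FOSL2 alone held 6598 reads, more than JUN, JUNB and JUND together (271, 878 and 3619).

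**Figure D4:**
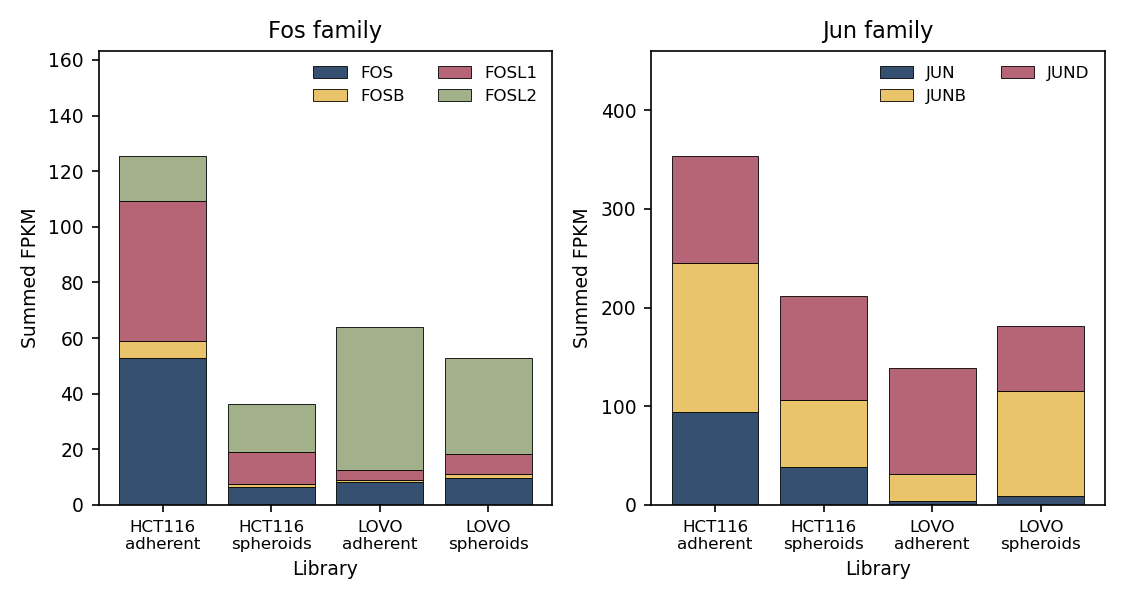
Summed FPKM of the Fos family and of the Jun family in each of the 4 libraries, as bars stacked from the FPKM of each gene. FOSL2 and JUND make up 80.3% and 77.7% of the sums of their families in LOVO adherent cells. FOS and FOSL1 make up 42.1% and 40.1% of the Fos sum in HCT116 adherent cells.

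The genes most like FOS, JUN and EGR1 were found by the Euclidean distance between log2(FPKM + 1) values over the 4 libraries, each gene centred on its own mean. The nearest to EGR1 were VGF, a secreted neuropeptide precursor, at 0.22, ARC, a neuronal immediate early gene, at 0.81, and ZFP36, which binds AU-rich mRNA and speeds its decay, at 1.13. VGF was at 55.7, 8.23, 0.371 and 1.18 FPKM in HCT116 adherent cells, HCT116 spheroids, LOVO adherent cells and LOVO spheroids, and ZFP36 at 97.6, 21.2, 2.11 and 9.92. The member closest to EGR1 was JUN, in the 6th place. FOS lay nearest to HSPA5, the main chaperone of the endoplasmic reticulum (0.40), which was at 1073 FPKM in HCT116 adherent cells and 219 to 281 elsewhere, then to UBE2S and AL121944.1 (0.76 each), with FOSB in the 4th place at 0.77. Nearest to JUN were PTPRH (0.41), AP3S1 (0.46) and C12orf75 (0.54), with FOSL1 as the closest member in the 164th place. With 4 libraries many genes lie close to any pattern.

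Genes around the members in the same pathway were read from lists, to be set against the 53.4% of all genes compared that were lower in HCT116 and the 45.5% that were higher in LOVO. These lists too were chosen with earlier results of these data known, so their counts are a description and not a test. The upstream regulators were kinases of the ERK, JNK and p38 pathways, SRF with its ELK and MRTF cofactors, and CREB1. Of these 18 of 19 listed genes were compared, and 0 passed a log2 fold change of 1 in either direction in either line on the log2(FPKM + 1) scale. Without a pseudocount, a setting chosen after seeing the data, 1 passed it in HCT116 (SRF, log2 ratio -1.06) and 3 in LOVO (ELK3 with 1.24, MAPK7 with 1.11 and the JNK gene MAPK8 with -1.08). In HCT116 7 were higher and 11 lower (median -0.15), and in LOVO 6 and 12 (-0.32). SRF itself was at 23.7 and 11.4 FPKM in adherent cells and spheroids of HCT116 (-0.99) and at 19.5 and 15.6 in those of LOVO (-0.31). ELK3, an ELK1 relative, was at 26.2 and 29 in HCT116 (0.14) and at 2.02 and 4.76 in LOVO (0.93). The kinase MAPK7 (ERK5) was at 3.24 and 4.56 in HCT116 (0.39) and at 3.13 and 6.74 in LOVO (0.91).

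The other immediate early transcription factors were lower in HCT116 spheroids too, with 2 of 13 genes compared higher, 11 lower and a median of -0.89. In LOVO 5 were higher and 8 lower (median -0.02), and this split turned under TPM and under centring, each with 7 of 13 higher (medians 0.01 and 0.04). ATF3, a stress-induced bZIP repressor, was lower in both lines, with 76.8 and 12.3 FPKM in HCT116 (-2.55) and 17.8 and 7.37 in LOVO (-1.17). NR4A3, an orphan nuclear receptor, was at 1.18 and 1.21 in HCT116 (0.02) and at 14.9 and 1.09 in LOVO (-2.93). KLF10 (25.9, 20.0, 9.28 and 15.9 FPKM in the order used above) and KLF6 (25.1, 23.0, 5.71 and 6.14) are zinc finger factors with log2 fold changes of -0.36 and -0.12 in HCT116 and 0.71 and 0.09 in LOVO.

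Among immediate early genes that are not transcription factors, 4 of 23 were higher and 19 lower in HCT116 (median -0.45), and 9 were below -1, beside 3.33% of all genes. In LOVO 10 were higher and 13 lower (median -0.24). CTGF, a matricellular protein, was at 26.6 and 5.55 FPKM in HCT116 (-2.08) and at 5.98 and 0.255 in LOVO (-2.48). PPP1R15A (GADD34), a phosphatase subunit of the stress response, was also lower in both lines, with 61.9 and 13.9 in HCT116 (-2.08) and 21.1 and 7.78 in LOVO (-1.33). NFKBIA, the inhibitor that NF-κB itself induces, was higher in both, with 16.7 and 40.3 in HCT116 (1.22) and 22.7 and 113 in LOVO (2.26). IER5 was at 32.2 and 31.4 in HCT116 (-0.04) and at 8.31 and 22.8 in LOVO (1.35).

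Of the other bZIP partners of Fos and Jun, 12 of 15 listed were compared, with 4 higher and 8 lower in HCT116 (median -0.22) and 3 higher and 9 lower in LOVO (-0.34). JDP2, a repressor that dimerises with Jun, was at 3.89 and 2.58 FPKM in HCT116 (-0.45) and at 8.93 and 1.07 in LOVO (-2.26). NFE2L2 (NRF2), the regulator of the oxidative stress response, was at 18.8 and 11.8 in HCT116 (-0.63) and at 49.6 and 19.2 in LOVO (-1.32). BATF2 and NFE2L3 had log2 fold changes of -0.03 and -0.18 in HCT116 and of 1.18 and 0.74 in LOVO, where BATF2 rested on 12 and 103 reads. BATF2 was at 0.235 and 1.80 FPKM in adherent cells and spheroids of LOVO. With the adherent value in both, its mean would fall under the filter of 1. Its place among the genes higher in LOVO therefore depended on the filter.

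Of the genes widely given as AP-1 targets 22 of 28 listed were compared. Of these 22, 17 were higher and 5 lower in LOVO spheroids (median 0.99), beside 45.5% of all genes compared higher, and 11 were above 1, beside 8.57%. In HCT116 6 were higher and 16 lower (median -0.17). Lower in HCT116 and higher in LOVO were 11 of the 22, beside 17.9% of all genes, and 0 had the opposite signs. CXCL8 (interleukin 8), a chemokine under NF-κB and AP-1 control, was at 32.0 and 7.07 FPKM in HCT116 (-2.03) and at 0.417 and 245 in LOVO (7.44), from 17 and 11228 reads in the latter. TNC, a matrix glycoprotein, was at 0.0560 and 0.0741 in HCT116 (0.02) and at 0.0752 and 5.92 in LOVO (2.69). It rested on 11 and 12 reads in HCT116 and on 13 and 1148 in LOVO. TNC passed the filter on mean FPKM only through LOVO spheroids, so its place among the genes higher there followed from the filter. UPP1, an enzyme of pyrimidine salvage, was lower in both lines, with log2 fold changes of -2.10 and -0.38, and so was the keratin KRT80, with -1.26 and -2.46. AREG and EREG, ligands of the EGF receptor named here after their values had been seen, were at 332 and 223 FPKM and at 36.1 and 32.9 in HCT116 (-0.58 and -0.13), and at 6.33 and 33.0 and at 8.44 and 63.9 in LOVO (2.21 and 2.78).

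**Figure D5:**
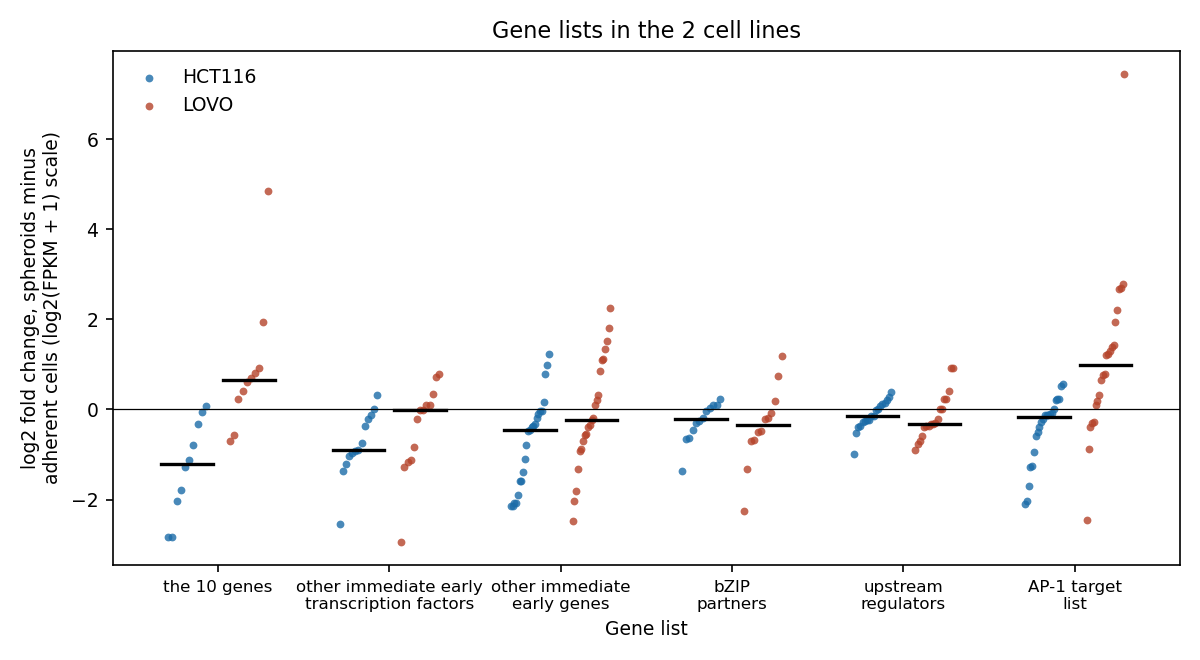
Fold change as a difference of log2(FPKM + 1) in HCT116 and LOVO for the members and the other gene lists, 1 point for each gene and a bar at the median. The medians of the members lie at -1.21 and 0.65, and that of the AP-1 target list in LOVO lies at 0.99.

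With the lines standing in for replicates of the growth form, no member passed a test. The limma fit on log2(FPKM + 1) with cell line as a covariate leaves 1 residual degree of freedom, and 0 of the 14429 genes (0%) were called at 0.05 after the Benjamini-Hochberg adjustment, since no limma adjusted p was lower than 0.462. At an unadjusted p under 0.05 were 1545 genes and 0 members, whose lowest p by limma was 0.127. IER3 had a log2 fold change over both lines of 2.27 (SE 1.23, limma adjusted p = 0.497) and FOS one of -1.30 (SE 0.74, limma adjusted p = 0.509). For EGR1 it was -1.11 (SE 0.83, limma adjusted p = 0.580), and for JUNB 0.40 (SE 0.75, limma adjusted p = 0.837). Where the lines went opposite ways, as for 9 of the 10 members, this average over lines describes neither of them.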

How the data were processed

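RNA-seq of 4 libraries, 1 per cell line and growth form, was analysed. The authors deposited FPKM for each gene together with its length and annotation. The aligner, the counter and the use of strand are not given in the sources used here, and the gene identifiers and coordinates are those of human GENCODE 29 (58724 of 58735 genes with the same start and end), although the submitters' processing notes name a mouse build. FPKM multiplied by gene length, and divided by the smallest step of each library (which holds the library size of the FPKM, 0.907 to 1.09 times the reads on genes), gave whole reads within 0.01 of a read, 15483569 to 20429147 per library. A floor of 3 reads and the intervals cover counting error only.

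Fold changes were differences of log2(FPKM + 1) between spheroids and adherent cells of a line, for genes whose FPKM averaged 1 or more. No p-value was computed within a line. Over both lines limma 3.58.1 (R 4.3.3) was fitted with a trend and the Benjamini-Hochberg adjustment. The study names edgeR, which was not used, since there were no replicates. Other steps used scipy 1.17.1, pandas 2.3.3 and numpy 2.4.6 in Python 3.11.15, and the scripts were tested on simulated data. In that simulation of 14429 genes the limma fit recovered 200 of 200 changed genes and made 88 false calls. Promoter windows came from RefSeq. Elements were searched on both strands.

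Named were all members, from each other list the 2 genes with the largest and the 2 with the smallest mean fold change, and the 3 genes nearest to FOS, JUN and EGR1. 1 gene that this rule names is not reported here. MAFF is in 2 lists. The members and lists were chosen with earlier results of these data known. Alternatives were other pseudocounts (0.1 and 0.01), TPM, scaling, centring, filters (none, or a mean FPKM of at least 5), a threshold of 1, shares of reads and other limma settings.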

Additional observations from a re-analysis of the deposited data

Results flagged for a closer look

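In the genes below the log2 fold changes of HCT116 and LOVO had opposite signs. Of the 14429 genes compared, 2577 were lower in HCT116 and higher in LOVO, and 2585 had the reverse signs. With 1 library per condition these differences were not tested. The difference (fold change in LOVO minus that in HCT116, on the log2(FPKM + 1) scale) was 5.17 for IER3, and only 7 of the genes compared had a larger one. It was 3.44 for EGR1, 3.07 for JUNB, 3.05 for FOS, 2.86 for FOSL1, 2.21 for FOSB and for JUN, 1.48 for IER2 and -0.63 for FOSL2. Among the other genes named, it was 9.47 for CXCL8, 1.39 for IER5, 1.21 for BATF2, 1.07 for KLF10, 0.93 for NFE2L3, 0.21 for KLF6 and -2.95 for NR4A3. For some of these genes 1 of the signs was not settled beyond counting error. The counting interval of the log2 ratio included 0 in HCT116 for FOSL2, IER5, BATF2 and NR4A3, and in LOVO for KLF6. JUND was lower in the spheroids of both lines. The epithelial and fibroblast marker levels given above differed between the lines in the same libraries, and their part in these differences was not tested.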

How the results depend on the processing

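All 20 fold changes of the members kept their sign under pseudocounts of 0.1 and 0.01, TPM, TMM-style scaling and centring. Of 100 such values 87 moved from the reported value by no more than the distance from the middle of the counting interval to its ends, and 13 moved by more, mostly in LOVO under TPM, which also moved the median of all genes there from -0.06 to 0.10. Under TPM the median of the members in LOVO was 0.90 in place of 0.65, and 2 members were above 2 there in place of 1, JUNB being at 2.17. At a threshold of 1 in place of 2, 6 members were lower in HCT116 spheroids and 2 were higher in LOVO spheroids. FOSB was at -2.44 in HCT116 with a pseudocount of 0.1 and at -2.23 under TPM in place of -1.79, which brought the members below -2 from 3 to 4. The difference between lines in adherent cells turned from -0.01 to 0.03 for JUND under TPM, and of 100 differences between lines 78 moved by no more than that distance. By limma 0 genes had an adjusted p under 0.05 under each of 5 alternatives (no covariate, a pseudocount of 0.1, no filter, TMM-style scaling, no trend), in which 163 to 2431 genes had an unadjusted p under 0.05 and the adjusted p of the members was 0.508 to 1.00. No replicate could be left out. Growth forms were paired within a line in the limma fit, and by replicate number no paired analysis was possible because each group held 1 library. A floor of 3 reads corresponds to 0.147 to 0.179 FPKM in a gene of 1 kb, below every member.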
